A study of Homo sapiens with 12 samples.

Results

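Expression of the genes for RNA polymerases I, II and III was followed in CCRF-CEM-C7H2, a glucocorticoid-sensitive subline of a T-cell acute lymphoblastic leukemia line, after dexamethasone. The genes were chosen by symbol: all POLR1, POLR2, POLR3 and GTF3C genes, TAF1A to TAF1D, RRN3, UBTF, BRF1 and BRF2. The array annotation gave 48 such genes on 111 probe sets, of 19775 genes with a probe set of their own. Of these 48, 45 reached a log2 value of 4 on at least 3 of the 12 arrays and were tested, of 9947 tested genes in all. The other three, the noncoding transcripts GTF3C2-AS1, POLR1HASP and TAF1A-AS1, stayed below 4 on every array and have no further values here. For each gene the brightest tested probe set, by its mean of the 12 arrays, was used. By role the tested genes were 6 subunits of Pol I, 6 Pol I factors and 2 subunits shared by Pol I and Pol III. A further 5 subunits were shared by all 3 enzymes. The rest were 9 Pol II genes, 9 subunits of Pol III and 8 Pol III factors. The 9 Pol II genes include POLR2J2 and the pseudogene POLR2J4, near copies of the subunit gene POLR2J. Probe sets that name several genes were not analysed here.

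Dexamethasone is a synthetic glucocorticoid; cultures were given it at 100 nM, or its carrier ethanol at 0.1%, for 6 h or 24 h, and total RNA was read on 1-colour Affymetrix arrays. Each of the 4 groups held 3 arrays, 1 per experiment, and the 6 h experiments are numbered 0, 1 and 3, the 24 h experiments 1, 2 and 3; values are listed below in that order. All arrays came from this 1 line, so the spread is between experiments and not between patients. A code in the array names of the labels gave 3 batches, 1 holding the 6 h dexamethasone arrays, 1 the 6 h ethanol arrays and 1 the whole 24 h set. At 6 h the batch and the treatment therefore cannot be told apart, which touches every 6 h value and every difference between 24 h and 6 h. The values are log2 expression per probe set, and differences are dexamethasone minus ethanol on that scale with limma's standard error (n = 3 arrays per group). A gene was called changed at a Benjamini-Hochberg adjusted p under 0.05 from limma. Since the RNA is from bulk culture, less RNA per cell and fewer cells with the transcript cannot be told apart.

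RNA polymerase I works in the nucleolus, where it makes the precursor of the large ribosomal RNAs. It is brought to ribosomal DNA by UBTF, by the SL1 complex that contains TAF1A to TAF1D, and by RRN3, which joins the polymerase to SL1. RNA polymerase III makes transfer RNAs, the smallest ribosomal RNA and other short RNAs, with TFIIIC (the GTF3C genes) recognising its internal promoters and TFIIIB (with BRF1 or BRF2) placing the enzyme. RNA polymerase II makes messenger RNA. The output of Pol I and Pol III is known to follow cell growth, and MYC is a known activator of both.

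The stretch before the start site was read from RefSeq (GRCh38.p14) to show what the members share in sequence. The E-box CACGTG, the MYC and MAX motif, reads the same on both strands. It was present in the 250 bases before a listed start site of 6 of the 36 tested members with a promoter entry (16.7%). The 6 were POLR1G, POLR3A, POLR3C, GTF3C2, GTF3C4 and GTF3C6. The share was 7.73% over 27305 genes, tested or not, and no share over the tested genes alone was taken. BRF2, POLR1E, POLR2G, POLR2I, POLR2J, POLR2J4, POLR2K, POLR3D and POLR3G had no entry. Of 21 members with an entry that were lower at 24 h 5 had the motif, and of the other 15 it was 1. By class it was in 5 of 14 Pol III genes, 1 of 11 Pol I genes, 0 of 5 Pol II genes and 0 of 6 shared subunits. The palindromic glucocorticoid response element, AGAACA and TGTTCT with any 3 bases between them, was in 0 of 36 members and in 1 of the 27305 genes. Shown here 5′ to 3′, with the E-box in capitals, are the windows of the members with an E-box that overlap no other annotated gene, POLR1G (chr19:45406394-45406643, plus strand, with the E-box starting -12 from the start site), POLR3A (chr10:78029516-78029765, minus strand, -35) and GTF3C6 (chr6:110958456-110958705, plus strand, -142). A match in letters is a description of the window, and binding was not measured.
POLR1G: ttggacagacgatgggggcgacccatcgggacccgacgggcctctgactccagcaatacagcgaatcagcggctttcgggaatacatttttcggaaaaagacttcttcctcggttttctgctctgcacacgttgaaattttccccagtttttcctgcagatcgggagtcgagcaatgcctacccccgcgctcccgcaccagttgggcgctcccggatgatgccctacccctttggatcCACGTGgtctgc
POLR3A: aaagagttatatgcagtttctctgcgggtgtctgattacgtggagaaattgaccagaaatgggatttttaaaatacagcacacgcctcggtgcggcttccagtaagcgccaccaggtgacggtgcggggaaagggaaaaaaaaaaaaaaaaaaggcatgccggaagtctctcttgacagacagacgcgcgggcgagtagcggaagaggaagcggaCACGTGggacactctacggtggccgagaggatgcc
GTF3C6: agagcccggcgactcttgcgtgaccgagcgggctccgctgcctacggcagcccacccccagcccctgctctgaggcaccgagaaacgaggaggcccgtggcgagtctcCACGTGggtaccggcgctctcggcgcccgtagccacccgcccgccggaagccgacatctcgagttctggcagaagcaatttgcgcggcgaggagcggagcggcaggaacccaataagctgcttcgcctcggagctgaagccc

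After 24 h most Pol I and Pol III genes were lower with dexamethasone and most Pol II genes did not pass the test. Of the 12 Pol I genes 9 fell, 1 rose and 2 did not pass the test, with a median difference of -0.87. Of the 17 Pol III genes 10 fell, 3 rose and 4 did not pass, with a median of -0.43. Only 2 of the 9 Pol II genes fell, 1 rose and 6 did not pass, with a median of -0.0058. The near copy POLR2J2 and the pseudogene POLR2J4 are among the 6. Among the 7 shared subunits 4 fell and none rose, with a median of -0.55. In all, 25 of 45 members fell (55.6%) and 5 rose, against 28.1% of all tested genes lower and 23.9% higher (52.0% called), so the share that fell was above the background and the share that rose below it. The median over all tested genes was -0.022.

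At 6 h the differences were smaller. The test called 6 of 45 members, all lower, against 3.77% of all genes lower and 2.72% higher (6.49% called). They were the Pol I genes POLR1B, POLR1G and TAF1A, the shared subunit POLR1C, and the Pol III subunits POLR3G and POLR3K. The median was -0.25 over Pol I, -0.052 over Pol III and -0.016 over Pol II. The smaller of these moved with single arrays: Pol III ran from -0.080 without dexamethasone array 0 to -0.021 without ethanol array 1, and Pol II from -0.045 without dexamethasone array 1 to 0.013 without dexamethasone array 0, so that its sign is not settled. Limma called 0 of 9 Pol II genes at 6 h, and 0 had an unadjusted p under 0.05.

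In each experiment at 24 h Pol I genes had the lowest median of these classes, then Pol III and then Pol II genes. The shared subunits, some of them also part of Pol II, were left out of this order. Their 24 h median, given above, lay between those of Pol I and Pol III genes. The median over Pol I genes lay below that over Pol II genes by differences of -0.77, -0.78 and -0.90 in experiments 1, 2 and 3, and that over Pol III genes by -0.34, -0.35 and -0.40. At 6 h the Pol I minus Pol II differences were -0.21, -0.31 and -0.27 in experiments 0, 1 and 3, and the Pol III minus Pol II differences were 0.060, -0.11 and -0.029, which held both signs. These class medians were not tested, since their genes were chosen with results in view. Without POLR2J2 and POLR2J4, near copies of POLR2J, the Pol II median at 24 h was -0.029. The dexamethasone and ethanol arrays did not overlap in 34 of 45 members at 24 h and in 16 of 45 at 6 h, beside 65.8% and 25.4% of all genes.

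**Figure D1:**
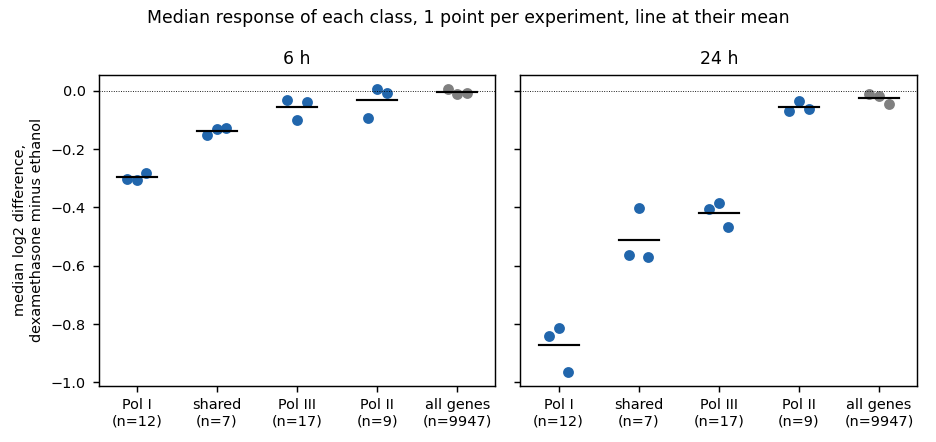
The vertical axis gives the median log2 difference, dexamethasone minus ethanol, over the tested genes of each class, with 1 point per experiment and a line at the mean of the 3. At 24 h the Pol I points lie between -0.96 and -0.81 and the Pol II points between -0.068 and -0.033, on the deposited scale; on the spike scale all points are shifted down.

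The scale matters for single directions. Poly-A spike controls are added to the RNA before labelling in the platform's protocol. By group means they were 0.513 higher on the dexamethasone than on the ethanol arrays at 6 h and 0.401 higher at 24 h. The hybridization controls, added after labelling, were 0.363 and 0.374 higher. Single experiments varied. At 24 h the poly-A controls read 7.60, 7.70 and 7.65 with dexamethasone and 6.94, 7.35 and 7.46 with ethanol. The hybridization controls read 11.70, 11.62 and 11.82 with dexamethasone and 11.45, 11.62 and 10.95 with ethanol, and were thus level in experiment 2. When each array was scaled to its poly-A controls, the median over all genes moved from -0.0023 to -0.52 at 6 h and from -0.022 to -0.42 at 24 h. On that spike scale 33 of 45 members were lower and 0 higher at 24 h (49.6% of all genes lower, 8.1% higher, 57.7% called), and 40 were lower and 0 higher at 6 h (70.8% lower, 1.01% higher, 71.8% called). The class medians at 24 h became -1.27 for Pol I, -0.83 for Pol III and -0.41 for Pol II. Relative to the median of all genes the classes lay at -0.85, -0.41 and 0.016. These values are the same on both scales by construction, since the scaling takes the same amount from all genes of a comparison. All 5 members that rose at 24 h on the deposited scale lost that call on the spike scale. Why the controls differ was not tested.

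The experiment number pairs the arrays, and a fit with it as a block called more of all tested genes. At 6 h 8 members were lower and 0 higher, against 7.53% and 6.08% of all genes (13.6% called). At 24 h 26 were lower and 5 higher, against 32.4% and 28.8% (61.3% called). In the difference between the times 23 were lower at 24 h and 1 higher, against 20.4% and 18.0% (38.4% called). Values below are without the block unless it is named.

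**Figure D2:**
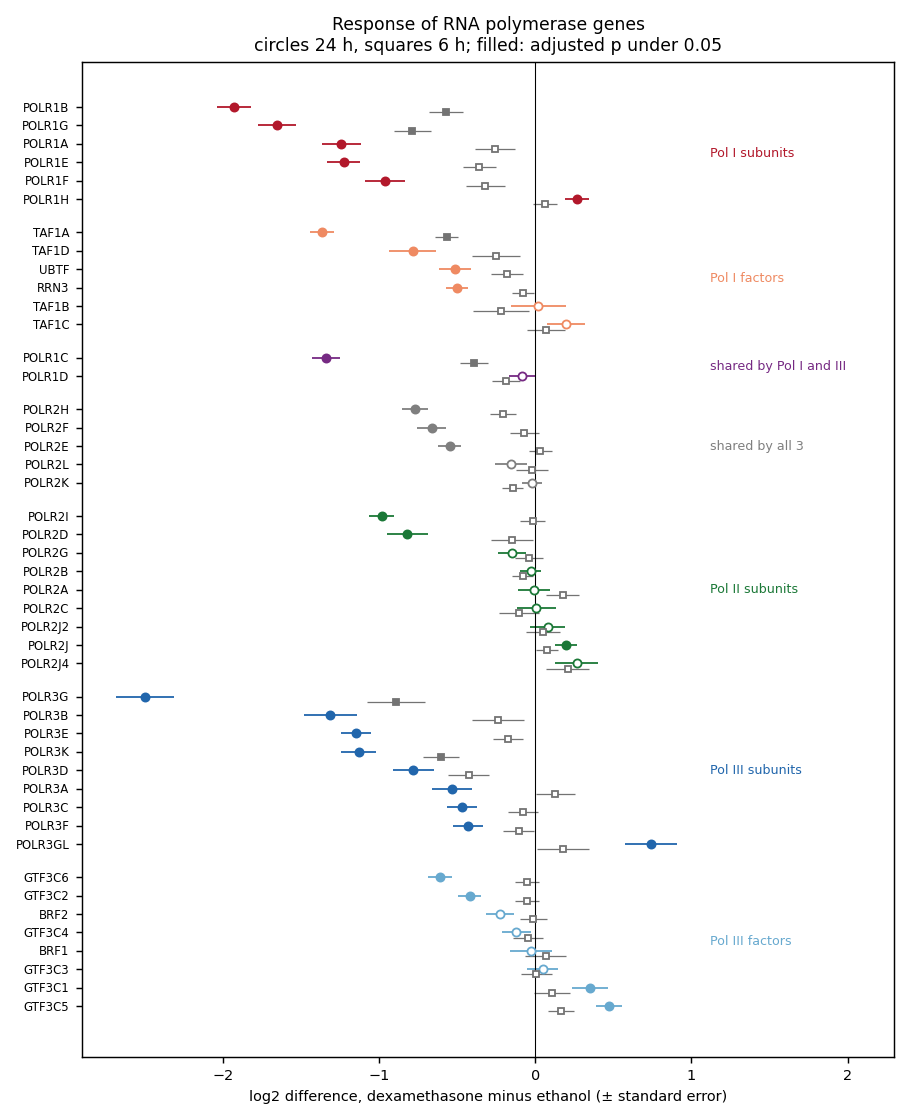
Each row is a gene, grouped by role, with its log2 difference (dexamethasone minus ethanol) and standard error at 24 h as a circle and at 6 h as a square, filled where the adjusted p was under 0.05, on the deposited scale. The values at 24 h run from -2.50 for POLR3G to 0.74 for POLR3GL, and on the spike scale each circle would lie 0.401 lower, which turns 9 of the 11 members above 0 (among the called ones POLR1H, POLR2J and GTF3C1), and each square 0.513 lower, which turns all 13 above 0.

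The Pol I subunits had the lowest median of the 7 roles at 24 h. Of the 6, 5 fell and 1 rose, with a median of -1.23. POLR1B, the second-largest subunit and part of the catalytic core, read 8.45, 8.69 and 8.26 with dexamethasone and 10.41, 10.46 and 10.30 with ethanol at 24 h. The lowest ethanol array was more than 1 log2 unit above the highest dexamethasone array. POLR1B fell by 1.93 ± 0.11 (adjusted p = 2.42e-07), to 26.3% of the ethanol level. At 6 h it already read 10.16, 9.92 and 10.10 with dexamethasone and 10.60, 10.62 and 10.68 with ethanol, again without overlap, and fell by 0.57 ± 0.11 (adjusted p = 0.012).

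POLR1G, which with POLR1E forms a heterodimer on the outside of Pol I, read 7.03, 6.77 and 6.75 with dexamethasone and 8.42, 8.53 and 8.55 with ethanol at 24 h. Every dexamethasone array was below every ethanol array, and the gene fell by 1.65 ± 0.12 (adjusted p = 1.4e-06). At 6 h the values were 8.04, 8.17 and 8.33 with dexamethasone and 8.94, 8.79 and 9.18 with ethanol, which also did not overlap, and the gene fell by 0.79 ± 0.12 (adjusted p = 0.0032). Its partner POLR1E fell by 1.23 ± 0.11 (adjusted p = 5.14e-06) at 24 h, with -0.36 ± 0.11 (adjusted p = 0.076) at 6 h, which did not pass.

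POLR1A encodes the largest subunit, which holds the active site together with POLR1B. Its 24 h values were 6.32, 6.53 and 6.36 with dexamethasone and 7.50, 7.58 and 7.86 with ethanol, with the dexamethasone arrays clearly apart, and it fell by 1.24 ± 0.13 (adjusted p = 1.7e-05). At 6 h the arrays overlapped and the difference was -0.26 ± 0.13 (adjusted p = 0.289). POLR1F, the stalk subunit that contacts RRN3, fell by 0.96 ± 0.13 (adjusted p = 0.000105) at 24 h. Its 6 h difference of -0.32 ± 0.13 did not pass without the experiment as a block (adjusted p = 0.183) and passed with it (adjusted p = 0.0316). POLR1H, a small subunit that helps cleave stalled RNA, was the 1 Pol I subunit that rose on the deposited scale, by 0.27 ± 0.078 (adjusted p = 0.0152) at 24 h. That call was lost without ethanol array 1 (adjusted p = 0.0547) and with the mean of its probe sets (adjusted p = 0.102), and on the spike scale the sign turned to -0.13. Its probe set is of a kind that can bind related transcripts, as are those standing for POLR2C, POLR2J and GTF3C5.

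Among the Pol I factors 4 of 6 fell at 24 h and none rose, with a median of -0.51. TAF1A, a subunit of the promoter-binding SL1 complex, read 7.58, 7.51 and 7.39 with dexamethasone and 8.82, 8.90 and 8.85 with ethanol at 24 h and 8.30, 8.42 and 8.38 with dexamethasone and 8.99, 8.98 and 8.84 with ethanol at 6 h. The treatments were apart at both times, and TAF1A fell by 0.57 ± 0.076 (adjusted p = 0.00142) at 6 h and fell by 1.36 ± 0.076 (adjusted p = 2.1e-07) at 24 h. Its level at 24 h was 38.8% of the ethanol level.

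TAF1D, another SL1 subunit, read 8.38, 8.17 and 8.14 with dexamethasone and 9.08, 8.94 and 9.02 with ethanol at 24 h. The ethanol arrays lay above all dexamethasone arrays, and TAF1D fell by 0.78 ± 0.15 (adjusted p = 0.00152). UBTF, the HMG-box protein that coats active ribosomal DNA, read 8.18, 8.25 and 8.25 with dexamethasone and 8.61, 8.85 and 8.75 with ethanol and fell by 0.51 ± 0.10 (adjusted p = 0.00187), a smaller change without overlap. RRN3 fell by 0.50 ± 0.072 (adjusted p = 0.000203), but its probe set may also read near-identical copies of the gene elsewhere in the genome. The other SL1 subunits did not pass: TAF1B was at 0.020 ± 0.18 (adjusted p = 0.937) and TAF1C at 0.20 ± 0.12 (adjusted p = 0.203). At 6 h TAF1A was the only one of the 6 factors called, and the other five lay between -0.25 and 0.068.

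The subunits shared by Pol I and Pol III, POLR1C and POLR1D, pair in the platform on which both enzymes assemble. The test called one and not the other, and the difference between them was not tested. POLR1C read 7.89, 7.94 and 7.78 with dexamethasone and 9.13, 9.17 and 9.32 with ethanol at 24 h, fully apart, and fell by 1.34 ± 0.090 (adjusted p = 8.55e-07). At 6 h it read 8.96, 8.97 and 9.18 with dexamethasone and 9.50, 9.32 and 9.47 with ethanol and fell by 0.39 ± 0.090 (adjusted p = 0.0285). The 6 h call was lost without dexamethasone array 0 or 1 or ethanol array 0 or 3 (adjusted p up to 0.0916) and when the 6 h arrays were fitted alone (adjusted p = 0.113). POLR1D read 11.70, 11.67 and 11.56 with dexamethasone and 11.73, 11.74 and 11.71 with ethanol at 24 h. Its arrays did not overlap, but the gap was small and the difference of -0.081 ± 0.089 (adjusted p = 0.483) did not pass, with an interval of -0.28 to 0.11 (95%). Of its 2 dimmer probe sets one gave -0.064 (adjusted p = 0.439) and the other -0.42 (adjusted p = 0.000357).

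Of the 5 subunits common to all 3 polymerases, POLR2E, POLR2F and POLR2H fell at 24 h and POLR2K and POLR2L did not pass. POLR2H read 10.30, 10.51 and 10.20 with dexamethasone and 11.03, 11.16 and 11.13 with ethanol at 24 h and fell by 0.77 ± 0.083 (adjusted p = 2.56e-05). POLR2F read 9.97, 10.24 and 10.23 with dexamethasone and 10.84, 10.79 and 10.80 with ethanol and fell by 0.66 ± 0.093 (adjusted p = 0.000169). POLR2E read 11.24, 11.39 and 11.16 with dexamethasone and 11.80, 11.79 and 11.84 with ethanol and fell by 0.55 ± 0.072 (adjusted p = 0.000108). In each of these genes every dexamethasone array was below every ethanol array. POLR2K was at -0.022 ± 0.065 (adjusted p = 0.807) and POLR2L at -0.15 ± 0.10 (adjusted p = 0.249). The probe set that stands for POLR2L and its second probe set were far apart, since the latter gave -1.36 (adjusted p = 4.44e-06). None of the 5 was called at 6 h by limma, where they lay between -0.21 and 0.033, and 2 had an unadjusted p under 0.05.

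Most Pol II genes did not pass the test at 24 h, POLR2I and POLR2D fell, and POLR2J rose on the deposited scale. The large catalytic subunits POLR2A, whose tail couples transcription to RNA processing, and POLR2B were at -0.0058 ± 0.10 (adjusted p = 0.97) and -0.029 ± 0.067 (adjusted p = 0.75) at 24 h. Their 95% intervals were -0.23 to 0.22 and -0.18 to 0.12. POLR2C, part of the assembly platform, was at 0.0086 ± 0.13 (adjusted p = 0.963) and the stalk subunit POLR2G at -0.15 ± 0.092 (adjusted p = 0.214). On the spike scale POLR2A was at -0.41 (adjusted p = 0.0588) and POLR2B at -0.43 (adjusted p = 0.0365).

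POLR2I, a small peripheral subunit involved in start-site choice and fidelity, read 10.15, 10.34 and 10.11 with dexamethasone and 11.11, 11.16 and 11.27 with ethanol at 24 h. The treatments were clearly apart, and POLR2I fell by 0.98 ± 0.080 (adjusted p = 3.16e-06). At 6 h it was at -0.016 ± 0.080 (adjusted p = 0.945). POLR2D, the partner of POLR2G in the stalk, read 8.74, 9.33 and 8.93 with dexamethasone and 9.69, 9.86 and 9.90 with ethanol at 24 h and fell by 0.82 ± 0.13 (adjusted p = 0.000454), again without overlap. The difference between the stalk subunits was not tested.

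POLR2J, counterpart in Pol II of POLR1D, rose by 0.20 ± 0.070 (adjusted p = 0.0372) on the deposited scale at 24 h. The call was lost without any 1 of 4 arrays (ethanol 1, ethanol 2, dexamethasone 2 or dexamethasone 3; adjusted p up to 0.135), with median centring (adjusted p = 0.077) and with the 24 h arrays alone (adjusted p = 0.0728), and on the spike scale the sign turned to -0.20. POLR2J2 was near the detection floor with a mean of 4.57 and a difference of 0.079 ± 0.11 (adjusted p = 0.587). POLR2J4, a transcribed pseudogene, read 7.54, 7.50 and 7.90 with dexamethasone and 7.35, 7.30 and 7.49 with ethanol at 24 h. Its arrays did not overlap, though the difference of 0.27 ± 0.14 (adjusted p = 0.14) did not pass. These 3 have near-identical sequences, so the values of single copies are uncertain.

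The Pol III subunits fell in 8 of 9 cases at 24 h, with a median of -0.78. The exception was one of a pair of alternative subunits. POLR3G and its paralog POLR3GL take the same place in the enzyme, with POLR3G known from stem and transformed cells and POLR3GL from most adult tissues. POLR3G read 6.91, 7.47 and 6.55 with dexamethasone and 9.41, 9.53 and 9.49 with ethanol at 24 h. Its dexamethasone arrays were spread widely (SD 0.46), yet all lay well below the ethanol arrays, and POLR3G fell by 2.50 ± 0.19 (adjusted p = 1.84e-06), to 17.7% of the ethanol level. POLR3GL read 10.82, 10.59 and 10.94 with dexamethasone and 10.10, 9.93 and 10.10 with ethanol, with all dexamethasone arrays above all ethanol arrays, and rose by 0.74 ± 0.17 (adjusted p = 0.0036) on the deposited scale, where the spike scale gave 0.34 (adjusted p = 0.131).

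At 6 h POLR3G read 8.77, 8.65 and 8.48 with dexamethasone and 9.64, 9.54 and 9.39 with ethanol, without overlap, and fell by 0.89 ± 0.19 (adjusted p = 0.0191). That call was lost without any 1 of dexamethasone arrays 1 and 3 and ethanol arrays 0 and 1 (adjusted p up to 0.069) and without the filter on low values (adjusted p = 0.0569). POLR3GL read 9.80, 10.41 and 10.18 with dexamethasone and 9.78, 10.24 and 9.84 with ethanol at 6 h, with overlap, and its difference was 0.18 ± 0.17 (adjusted p = 0.604). The difference between the paralogs' responses was not tested.

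**Figure D3:**
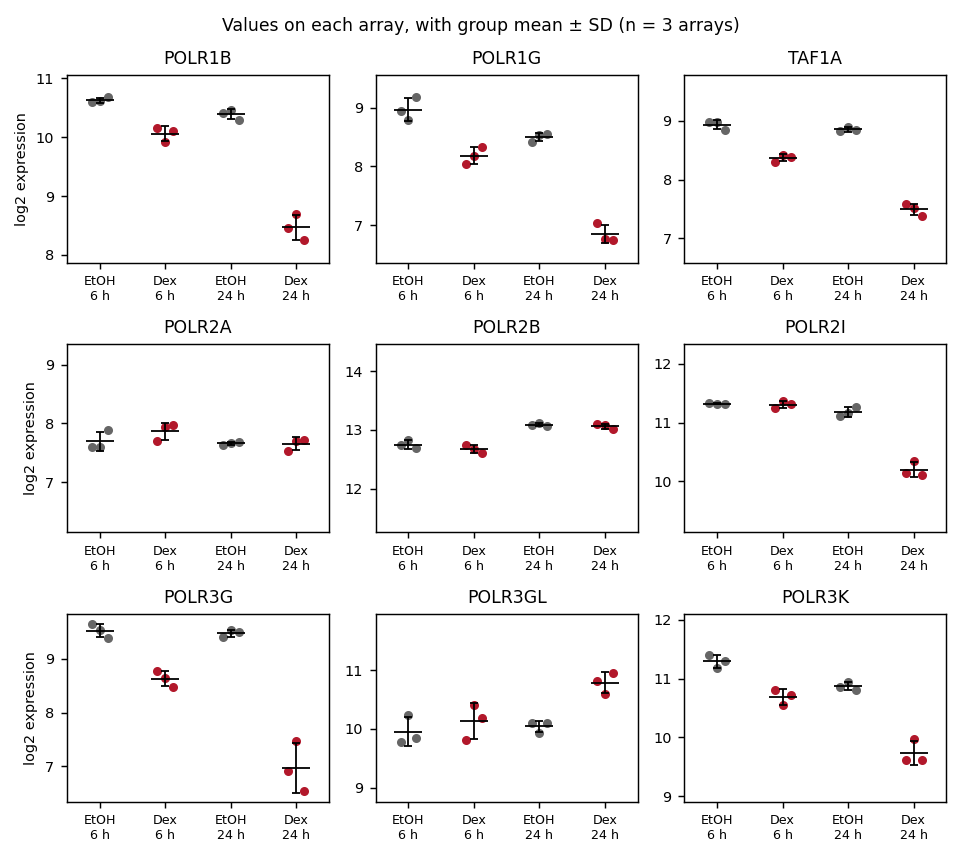
Log2 expression of 9 members on each of the 12 arrays, in grey for ethanol (EtOH) and red for dexamethasone (Dex), with the group mean and SD (n = 3) in black; panels have their own vertical axes. The dexamethasone points at 24 h are below the ethanol points for POLR1B, POLR1G, TAF1A, POLR2I, POLR3G and POLR3K, above them for POLR3GL, and overlap them for POLR2A and POLR2B; these are deposited values, and on the spike scale the rise of POLR3GL did not pass the test.

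POLR3B, the second-largest subunit and part of the catalytic core with POLR3A, read 6.44, 7.14 and 6.85 with dexamethasone and 7.90, 8.26 and 8.21 with ethanol at 24 h. The treatments were apart and POLR3B fell by 1.31 ± 0.17 (adjusted p = 9.26e-05). POLR3A itself fell by 0.53 ± 0.13 (adjusted p = 0.00533) at 24 h and was at 0.13 ± 0.13 (adjusted p = 0.63) at 6 h. POLR3E, which pairs with POLR3D in a subcomplex for initiation and termination, read 8.77, 9.03 and 8.94 with dexamethasone and 9.94, 10.06 and 10.20 with ethanol and fell by 1.15 ± 0.10 (adjusted p = 4.14e-06), again without overlap. POLR3D fell by 0.78 ± 0.13 (adjusted p = 0.000515) at 24 h. Its 6 h difference of -0.43 ± 0.13 passed with the experiment as a block (adjusted p = 0.0415) but not without it (adjusted p = 0.0821).

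POLR3K, a small subunit needed for termination and RNA cleavage, read 9.62, 9.98 and 9.61 with dexamethasone and 10.86, 10.94 and 10.80 with ethanol at 24 h and 10.81, 10.55 and 10.72 with dexamethasone and 11.40, 11.18 and 11.30 with ethanol at 6 h. Both times the treatments were apart, and POLR3K fell by 1.13 ± 0.11 (adjusted p = 1.51e-05) at 24 h and fell by 0.60 ± 0.11 (adjusted p = 0.0109) at 6 h. POLR3C and POLR3F, which sit with POLR3G or POLR3GL in the subcomplex that opens promoters, fell by 0.47 ± 0.10 (adjusted p = 0.00235) and fell by 0.43 ± 0.10 (adjusted p = 0.00393) at 24 h.

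Of the 8 Pol III factors 2 were lower, 2 higher and 4 not called at 24 h, which is near the shares of all genes (28.1% lower, 23.9% higher), with a median of -0.074. GTF3C6, the smallest TFIIIC subunit, read 13.09, 13.17 and 13.15 with dexamethasone and 13.68, 13.75 and 13.82 with ethanol and fell by 0.61 ± 0.078 (adjusted p = 8.35e-05). GTF3C2 read 10.07, 10.17 and 10.06 with dexamethasone and 10.47, 10.56 and 10.52 with ethanol and fell by 0.42 ± 0.074 (adjusted p = 0.000833). Both were without overlap between treatments. GTF3C5 went the other way on the deposited scale, reading 9.12, 9.40 and 9.38 with dexamethasone and 8.81, 8.83 and 8.85 with ethanol, with a rise of 0.47 ± 0.083 (adjusted p = 0.000798). On the spike scale it was at 0.073 (adjusted p = 0.733), and a dimmer probe set of the gene gave -0.010 (adjusted p = 0.92). GTF3C1, the largest TFIIIC subunit, rose by 0.35 ± 0.11 (adjusted p = 0.0245), a call lost without ethanol array 1 (adjusted p = 0.0921) or dexamethasone array 3 (adjusted p = 0.0928) and with the 24 h arrays alone (adjusted p = 0.0597), with -0.049 on the spike scale. A dimmer probe set of GTF3C1 gave 0.21 (adjusted p = 0.169). GTF3C3 and GTF3C4 were at 0.049 ± 0.10 (adjusted p = 0.717) and -0.12 ± 0.094 (adjusted p = 0.317). A dimmer probe set of GTF3C4 was called at -0.30 (adjusted p = 0.0417), and another was not, at -0.21 (adjusted p = 0.134).

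BRF1 and BRF2 are alternative TFIIIB subunits, BRF1 for internal promoters such as those of transfer RNA genes and BRF2 for promoters upstream of the gene. BRF1 read 6.51, 6.83 and 6.67 with dexamethasone and 6.69, 6.54 and 6.88 with ethanol at 24 h, with overlap, and its difference was -0.027 ± 0.13 (adjusted p = 0.885). BRF2 read 7.19, 7.05 and 7.21 with dexamethasone and 7.47, 7.34 and 7.31 with ethanol, without overlap, and its difference of -0.23 ± 0.087 (adjusted p = 0.0532) missed the threshold, while with the experiment as a block it passed (adjusted p = 0.0286). At 6 h BRF1 read 6.91, 6.97 and 7.27 with dexamethasone and 6.91, 6.88 and 7.17 with ethanol and BRF2 7.39, 7.47 and 7.62 with dexamethasone and 7.50, 7.42 and 7.59 with ethanol, which overlapped in both genes. The 6 h differences were 0.067 ± 0.13 (adjusted p = 0.84) and -0.013 ± 0.087 (adjusted p = 0.963). No Pol III factor was called at 6 h by limma; 0 of the 8 had an unadjusted p under 0.05.

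The response at 24 h was tested against that at 6 h in the same fit. It was lower at 24 h in 20 of 45 members and higher in 0, against 14.8% and 12.3% of all genes (27.1% called). The 20 were 7 Pol I genes, 7 Pol III genes, 2 Pol II genes and 4 shared subunits. POLR3G had the widest step, -1.61 ± 0.26 (adjusted p = 0.0017), then POLR1B with -1.36 ± 0.15 (adjusted p = 0.000189) and POLR3B with -1.07 ± 0.24 (adjusted p = 0.00887). The Pol II genes were POLR2I, at -0.97 ± 0.11 (adjusted p = 0.000221), and POLR2D, at -0.67 ± 0.19 (adjusted p = 0.0259). All 6 members called at 6 h were lower still at 24 h by this test, of which POLR1G, TAF1A and POLR3K lost that call on the spike scale. The call of POLR2D was lost without any 1 of 5 arrays and that of POLR3K without any 1 of 9 (adjusted p up to 0.0602 and 0.087). On the spike scale 8 of the 20 remained and no other was called, against 4.68% of all genes lower and 8.13% higher (12.8% called): POLR1A, POLR1B, POLR1C, POLR1E, POLR2I, POLR3B, POLR3E and POLR3G. Across the 45 members Pearson's r between the responses at 6 h and 24 h was 0.858, beside 0.649 over the 9947 genes; genes are not independent, each array enters 1 of the axes only, and no p is given.

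**Figure D4:**
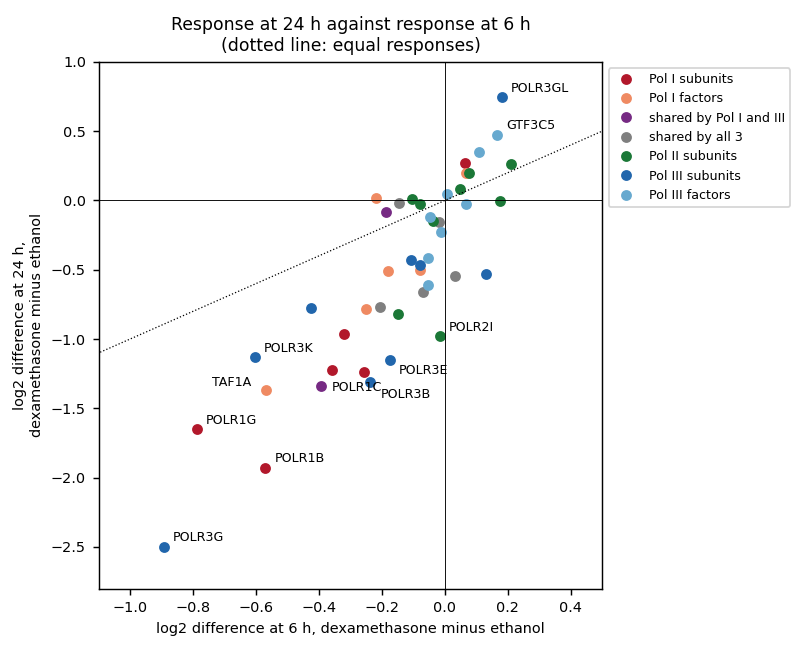
Each point is a member, coloured by role, with its log2 difference at 6 h on the horizontal axis and at 24 h on the vertical axis, and a dotted line where both are equal. The axes have different ranges; members called at 6 h, such as POLR3G (-0.89 and -2.50) and POLR1G (-0.79 and -1.65), lie below the line, while POLR2I lies near 0 at 6 h and at -0.98 at 24 h. The values are on the deposited scale, and the spike scale moves all points left and down.

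Where a gene had more than 1 tested probe set, these were compared. Of 28 such members, 13 had all probe sets called in the same direction at 24 h, 8 had some called and 7 had none, and in 0 were probe sets called in opposite directions. At 6 h the counts were 1, 5, 22 and 0. The same counts over all genes were not taken, so whether the members differ from other genes here is not known. POLR1B had 1 probe set at -0.25 (adjusted p = 0.261), which did not pass, beside the value of -1.93 that stands for the gene. That probe set is of the kind that can bind related transcripts. The remaining dimmer probe sets of POLR1B were at -2.43 (adjusted p = 5.2e-06) and -2.62 (adjusted p = 1.44e-07). TAF1B had 1 at -0.33 (adjusted p = 0.0177), where the value for the gene was 0.020. At 6 h a second probe set of POLR3E was called at -0.46 (adjusted p = 0.00922) and one of POLR1E at -0.49 (adjusted p = 0.031), unlike the probe sets that stand for these genes.

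Other genes of these pathways were read from lists of known factors. Their counts at 24 h on the deposited scale stand beside 28.1% of all genes lower and 23.9% higher (52.0% called). Of 9 tested genes around Pol I and ribosomal DNA 5 fell and 2 rose at 24 h, with a median of -0.50. MYC fell by 2.72 ± 0.10 (adjusted p = 1.6e-08), and was already at -0.99 ± 0.10 (adjusted p = 0.000262) at 6 h, the only gene of the 9 called then. NOLC1, a nucleolar phosphoprotein that binds Pol I, fell by 1.55 ± 0.11 (adjusted p = 1.24e-06). The others that passed, named after their values were seen, were TCOF1, NCL and NPM1, which fell, and the termination factor TTF1 and the silencing factor BAZ2A, which rose on the deposited scale. BAZ2A lost its call without any 1 of 5 of the 24 h arrays, ethanol array 3 being the exception (adjusted p up to 0.126).

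Of 11 tested genes listed for Pol III outside the members 6 fell and 0 rose at 24 h, with a median of -0.34. TBP and the SNAPC genes were counted in this list only, though they are not particular to Pol III. SSB, the La protein that binds the ends of new Pol III transcripts, fell by 1.28 ± 0.079 (adjusted p = 4.87e-07), and SNAPC1, of the complex for upstream promoters, by 0.74 ± 0.11 (adjusted p = 0.000189). Both were also lower at 6 h, at -0.39 ± 0.079 (adjusted p = 0.0166) and -0.79 ± 0.11 (adjusted p = 0.00145), and the 6 h call of SSB was lost without ethanol array 0 or 3 (adjusted p up to 0.0554). The 13 tested assembly factors gave 8 lower and 0 higher, with a median of -0.33; PFDN2 fell by 1.03 ± 0.086 (adjusted p = 3.86e-06) and RUVBL1 by 0.96 ± 0.092 (adjusted p = 1.15e-05), and at 6 h PFDN2 was the one called, at -0.84 ± 0.086 (adjusted p = 0.00023). The 30 tested general factors of Pol II gave 7 higher (23.3%) and 6 lower (20.0%) at 24 h, near the shares of all genes, with a median of 0.0036, with TAF8 at 0.72 ± 0.18 (adjusted p = 0.00784) and TAF5 at -0.53 ± 0.13 (adjusted p = 0.0069), and limma called 0 at 6 h (7 had an unadjusted p under 0.05). Of 8 tested genes of mitochondrial transcription 6 fell and 0 rose at 24 h, with a median of -0.65, led by the polymerase POLRMT at -1.11 ± 0.12 (adjusted p = 3.12e-05) and TFAM at -0.97 ± 0.11 (adjusted p = 4.51e-05). Limma called 0 of the 8 at 6 h, and 2 had an unadjusted p under 0.05. No gene of these 5 lists was called higher at 24 h after scaling to the spikes. On that scale 49.6% of all genes were lower and 8.1% higher (57.7% called). The counts lower were 6 of 9 around Pol I, 10 of 11 for Pol III and 11 of 13 for assembly. They were 15 of 30 for the Pol II factors, near the share of all genes, and 7 of 8 for mitochondrial transcription. Of the rises named, TAF8 was then at 0.31, TTF1 0.20 and BAZ2A 0.071, none of them past the test. For at least 1 choice of array, leaving it out ended the 24 h call of 5 of the 13 called Pol II factors. These were CCNH, GTF2A1, GTF2F1, TAF11 and TCEA1. The same held for 3 of 6 called genes of the Pol III list (BDP1, SNAPC4 and TBP). It also held for 2 of 8 assembly factors (RPAP1 and RPAP3), for BAZ2A and for TFB1M.

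The arrays were alike in range: between 22503 and 22941 probe sets per array reached a log2 of 4, and array medians ran from 3.01 to 3.12. The number of arrays, 3 per group, limits the precision. Of 10 T-lineage markers 9 were above 4 on all arrays, among them CD3D and LCK, while CD2 was below 4 on all. Of 5 myeloid markers and the 1 erythroid marker read, 0 were above 4. B-lineage CD79A and stromal COL1A1 were above 4, with the other 2 B and 3 stromal markers below. The summed log2 values of the 3 B markers were 17.33 to 17.58 with dexamethasone and 15.61 to 15.99 with ethanol at 24 h. At 6 h they were 15.83 to 16.50 and 15.47 to 15.96. Most of this sum is CD79A, which ran from 9.78 to 11.80 over the arrays, while MS4A1 and PAX5 stayed below 4 on every array. The stromal sum at 24 h was 13.61 to 14.22 with dexamethasone and 14.21 to 14.69 with ethanol. The sums of the T-lineage, myeloid, erythroid and stromal lists overlapped between treatments at 24 h, the stromal sums only narrowly. The part of these markers in the results was not tested.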

How the data were processed

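Total RNA of the 12 cultures was read on HG-U133 Plus 2.0 arrays, with 54675 probe sets. The values the authors deposited are log2 expression per probe set, and per the submitters' processing notes they came from GCRMA run in R 2.6. Whether all 12 were normalized as 1 set is not stated.

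Of the probe sets, 41097 had 1 gene symbol in the platform annotation, 1801 several and 11777 none. Symbols were brought to RefSeq names through Entrez numbers. Tests excluded the 62 control probe sets. Probe sets at a log2 of 4 or more on at least 3 arrays (23265) were fitted with limma 3.58.1 in R 4.3.3, as group means over all 12 arrays with 8 residual degrees of freedom, with Benjamini-Hochberg adjustment over all 23265 p-values. The fit was also run on simulated arrays that were not paired and had few changed probe sets. Since the real arrays differ in both, that run is only a check of the code. Same-numbered experiments pair the arrays, per the labels' numbers and their correlation after group means were removed: at 6 h r was 0.417, 0.627 and 0.609, and at 24 h it was 0.286, 0.238 and 0.424, while no other pair exceeded 0.0500. The reported fit had no block, and blocked values are given where a call changed.

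Alternatives were the block, other filters, scalings and variance moderation, the mean of probe sets, and leaving out each array. Per-array values are given for the 3 members with the widest 24 h difference in each role, for members called at 6 h, and for the paralog pairs. Other pathway genes named are MYC and the 2 with the widest change past the test in each list, and further ones named after their values were seen, where a count was small or a call was lost. The members and lists were chosen with earlier results of these data known.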

Additional observations from a re-analysis of the deposited data

Results flagged for a closer look

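In 20 of the 45 members the response to dexamethasone differed between 24 h and 6 h by limma's test of the difference itself, and in each it was lower at 24 h. The values are differences of log2 differences, 24 h minus 6 h. Among Pol I genes the response changed for POLR1B by -1.36, POLR1A by -0.98, POLR1E by -0.87, POLR1G by -0.87, TAF1A by -0.80, POLR1F by -0.64 and RRN3 by -0.42. Among Pol III genes it changed for POLR3G by -1.61, POLR3B by -1.07, POLR3E by -0.97, POLR3A by -0.66, GTF3C6 by -0.56, POLR3K by -0.53 and GTF3C2 by -0.37. Among shared subunits it changed for POLR1C by -0.94, POLR2F by -0.59, POLR2E by -0.58 and POLR2H by -0.57, and among Pol II genes for POLR2I by -0.97 and POLR2D by -0.67. The call was lost without any 1 of some arrays in 5 members, here with the experiment numbers of those arrays: GTF3C2 (6 h dexamethasone 0 and 1, 6 h ethanol 0 and 3, 24 h dexamethasone 1 and 3, 24 h ethanol 2 and 3, adjusted p up to 0.0702), POLR3K (6 h dexamethasone 0 and 3, 6 h ethanol 1 and 3, 24 h dexamethasone 1 and 3, 24 h ethanol 1, 2 and 3, adjusted p up to 0.087), POLR2D (6 h ethanol 1 and 3, 24 h dexamethasone 3, 24 h ethanol 2 and 3, adjusted p up to 0.0602), POLR1F (6 h dexamethasone 0, 24 h dexamethasone 1 and 3, 24 h ethanol 2, adjusted p up to 0.0623) and POLR3A (6 h dexamethasone 3, 24 h ethanol 2 and 3, adjusted p up to 0.0579). The 6 h arrays enter each of these differences, so the batches cannot be told apart from the treatment in them.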

How the results depend on the processing

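With the experiment as a replicate block nested in time, 8 members were called at 6 h (0 higher), 31 at 24 h (5 higher) and 24 in the difference between the times (1 higher, POLR3GL). Apart from the calls of POLR1F, POLR3D and BRF2 given above and POLR3C, POLR3GL, TAF1D and UBTF in the difference, this block changed no call of a member. With a block shared across times POLR2J lost its 24 h call. Scaling to the poly-A controls called 40 members at 6 h and 8 in the difference between the times, and gave medians at 6 h of -0.77 for Pol I, -0.53 for Pol II and -0.57 for Pol III, and at 24 h of -1.27, -0.41 and -0.83. It turned the sign of all 13 members above 0 at 6 h, of which BRF1 (-0.45), GTF3C1 (-0.41), GTF3C3 (-0.51), POLR1H (-0.45), POLR2E (-0.48), POLR2J (-0.44), POLR2J2 (-0.46) and TAF1C (-0.45) passed the test there and GTF3C5, POLR2A, POLR2J4, POLR3A and POLR3GL did not. At 24 h it turned 9 of the 11 above 0, which were GTF3C1 (-0.049), GTF3C3 (-0.35), POLR1H (-0.13) and POLR2J (-0.20), called on 1 of the scales, and POLR2C, POLR2J2, POLR2J4, TAF1B and TAF1C, called on neither, since it takes 1 amount from all genes of a comparison. The Pol II median at 24 h was -0.038 with median centring, 0.043 with cyclic loess and 0.019 with the mean of probe sets. The Pol I median was -0.96 at 24 h with a filter at 6, and -0.27 at 6 h with the mean of probe sets. Leaving out 1 array gave -0.33 to -0.21 for Pol I, -0.045 to 0.013 for Pol II and -0.080 to -0.021 for Pol III at 6 h, -0.038 to 0.018 for Pol II at 24 h and -0.51 to -0.40 for Pol III at 24 h, and between 27 and 31 members called at 24 h, 4 and 7 at 6 h and 15 and 21 in the difference. Without the filter GTF3C1 missed its 24 h call narrowly (adjusted p = 0.0501), and POLR1F, POLR2D, POLR3A and POLR3K lost theirs in the difference. With the mean of probe sets POLR1F and POLR3K lost theirs in the difference, POLR2L and UBTF gained one there, POLR1E and POLR3E were called at 6 h, and GTF3C4, POLR1D and POLR2L at 24 h. With the filter at 6 BRF2 was called at 24 h. Cyclic loess and the intensity trend changed no call of a member. The causes of these shifts were not tested. Signal over background limits POLR2J2, close to the floor of 4, and the 3 transcripts below it.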
